A study of Mus musculus with 11 samples.

Results

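The genes *Tph1*, *Tph2* and *Slc6a4*, which make and take back serotonin, were examined in maps of open chromatin from mouse embryonic dopaminergic (DA) and serotonergic (5-HT) neurons. These 3 genes, of 37310 in the annotation, were chosen by name, and a region was kept when it overlapped the mm9 gene body or the 20 kb on either side of it. Of the 131942 open regions listed for the series, 19 met this rule, with 16 at *Tph2*, 2 at *Tph1* and 1 at *Slc6a4*. Only *Tph2* had an open promoter in both cell types. The single region at *Slc6a4* was open in DA libraries and in neither 5-HT library, and no promoter of *Tph1* carried a peak in any library.

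Serotonin is made from tryptophan in a pair of steps. Tryptophan hydroxylase, encoded by *Tph1* outside the brain and in the pineal gland and by *Tph2* in the neurons of the raphe nuclei, performs the rate-limiting hydroxylation, and the decarboxylase Ddc completes the synthesis. The serotonin transporter, encoded by *Slc6a4*, carries the released transmitter back into the neuron and is the target of the selective reuptake inhibitors.

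ATAC-seq marks accessible DNA by the insertion of adapters with a transposase, and places where insertions gather are called as peaks. At E14.5, 3 DA libraries were made from GFP+ cells of the ventral mesencephalon of TH-GFP embryos, in which a rat *Th* promoter drives GFP, and 2 5-HT libraries from YFP+ cells of rhombomeres 1 to 3 of embryos that carry a CRE driver and ROSA YFP, in which YFP follows past CRE activity. Fathers carried the transgenes, on a C57BL/6J background for TH-GFP, and mothers were Swiss wild type. Embryos were pooled for each sort, each library came from a sort of its own, and fewer cells were sorted for the 5-HT libraries, so that cell type and cell number cannot be told apart. The 6 RNA-seq samples of the same cell types were not analysed here.

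The libraries differed in size before any gene was considered. DA replicates 1, 2 and 3 had a peak in 52861, 93055 and 94351 regions, or 40.1%, 70.5% and 71.5% of the list, and 5-HT replicates 1 and 2 in 38772 and 22879 regions, or 29.4% and 17.3%. Every DA library had more peaks than either 5-HT library (80100 ± 23589, SD, n = 3, against 30800 ± 11238, n = 2; p = 0.2, exact two-sided permutation test, whose smallest possible p is 0.1 with 3 and 2 libraries). The read depth is unknown. The score of a peak has no named scale, and it was therefore turned into a percentile among the peaks of its own library, where 100 is the highest score and 0 stands for no peak.

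Markers of both cell types were read beside all 22367 protein-coding genes, of which 59.8%, 63.7% and 62% had a promoter peak in DA replicates 1 to 3 and 58.2% and 49.6% in 5-HT replicates 1 and 2. The median percentiles of all these genes were 47.1, 68.9 and 66.8 in DA and 39.4 and 0 in 5-HT, so that DA libraries were higher for genes at large. The promoter of *Th*, which encodes the rate-limiting enzyme of dopamine synthesis, lay at percentiles 90.5, 91.7 and 89.3 in the DA libraries and had no peak in the 5-HT libraries. Among 9 DA markers, 9 had a promoter peak in each DA library and 6 in each 5-HT library, with summed percentiles of 658, 706 and 696 in DA and 351 and 169 in 5-HT replicates 1 and 2, and with *Pitx3* the highest in each DA library. The 6 markers of 5-HT neurons include *Tph2* and *Slc6a4*, which are under study here, so they are not a separate check of these genes. Over the 6 markers, 4, 5 and 4 genes had a promoter peak in the DA libraries and 5 and 2 in 5-HT replicates 1 and 2. Their summed percentiles were 271, 292 and 277 against 274 and 142. Of these sums, *Tph2* and *Slc6a4* gave 134, 155 and 139 in DA and 87.5 and 46 in 5-HT. *Fev*, the ETS factor of serotonin neurons, had a promoter peak in 5-HT replicate 1 at percentile 30.1 and in no other library, and 5-HT replicate 2 lacked promoter peaks at *Fev*, *Gata2*, *Lmx1b* and *Slc6a4*.

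Markers of other cells were read in the same way. All 3 GABAergic markers had a promoter peak in each DA library and in 5-HT replicate 1, and 2 had one in 5-HT replicate 2, with summed percentiles of 142, 161, 164, 137 and 62.2 over the 5 libraries and *Gad2* the highest in both 5-HT libraries. Of the 2 glutamatergic markers, *Slc17a6* reached 90.7, 95.4 and 97.1 in DA and 20.2 and 0 in 5-HT, and *Slc17a7* had no promoter peak. The 4 noradrenergic markers summed to 0, 40.2, 18.8, 0 and 0, and *Dbh*, which defines these cells, was at 0 in each library. The 3 radial glia markers had peaks in each library except for 1 gene in 5-HT replicate 2 (sums of 169, 164, 196, 158 and 78.3), led by *Slc1a3* or *Sox2*. The 4 markers of pericytes and endothelium summed to 44.9, 124, 81.8, 53.8 and 0, with *Cldn5* the highest where any was present and *Pecam1* at 0 throughout. The part of such cells in the peaks at the serotonin genes was not tested.

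The 3 gene windows together held more peaks in each DA library than in either 5-HT library, as did the whole list of regions. Peaks were found in 8, 15 and 16 of the 19 regions in DA replicates 1 to 3 and in 4 and 4 in the 5-HT libraries. The groups did not overlap (13 ± 4.36, SD, n = 3, against 4 ± 0, n = 2; p = 0.2, exact permutation test). Of single protein-coding gene windows, 31.9% had more peaks in each DA library than in either 5-HT library. In such bulk libraries, fewer cells with an open region and a weaker signal per cell cannot be told apart. Per 10000 peaks of the library, the counts became 1.51, 1.61 and 1.7 in DA and 1.03 and 1.75 in 5-HT, and the groups overlapped. With only the 22879 best-scored peaks retained per library, the size of the smallest library, 3, 3 and 4 regions kept a peak in DA and 3 and 4 in 5-HT.

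The patterns over the 5 libraries were close to those of the whole list. A peak in all 3 DA libraries was seen in 7 of 19 regions (36.8%, against 34.6% of all regions) and a peak in both 5-HT libraries in 3 (15.8%, against 14.3%). All 5 libraries shared 3 regions (15.8%, against 12.8%). At least 1 DA library and no 5-HT library was the pattern of 14 regions (73.7%, against 67.5%), and 4 of these were open in all 3 DA libraries (21.1%, against 13.4%). A 5-HT library had a peak in 5 regions (26.3%, against 32.5%), and no region was open in 5-HT alone, a pattern held by 5.09% of all regions. At equal numbers of peaks, 3 regions were open in all 3 DA libraries (12.7% of all regions) and 3 in both 5-HT libraries (11.8%), and none was open in all 3 DA libraries alone (2.14%). The intron 9 region of *Tph2* then kept a peak in 5-HT replicate 2 and in no DA library, a pattern held by 8.42% of all regions. The cut is the size of 5-HT replicate 2, so every peak of that library is kept by construction. Before the cut, this region had percentiles of 45.3 and 58.6 in DA replicates 2 and 3 and of 7.4 in 5-HT replicate 2.

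*Tph2* (ENSMUSG00000006764.8, chr10:114515697-114622078, minus strand, 106 kb) had an open promoter in every library. The region at chr10:114621596-114622272 spans 677 bp from -194 to 482 bp of the TSS and takes in all 238 bp of exon 1. Its scores were 9.91, 7.59 and 11.1 in DA replicates 1 to 3 and 7.09 and 3.59 in 5-HT replicates 1 and 2, which corresponded to percentiles of 90.5, 80.9 and 95.2 against 87.5 and 46. 5-HT replicate 1 thus lay among the DA libraries and 5-HT replicate 2 below them. Promoter regions of any gene were open in all 5 libraries in 58.8% of cases. The mean percentile was 88.8 ± 7.31 (SD, n = 3) in DA and 66.7 ± 29.4 (n = 2) in 5-HT, a difference of 22.1 points that was smaller than the spread of the 5-HT libraries (p = 0.2, exact permutation test; 0.525 after Benjamini-Hochberg adjustment over 22367 protein-coding genes, whose median difference was 5.63 points). Without 5-HT replicate 2 the difference was 1.34 points and without 5-HT replicate 1 it was 42.9, and among equal numbers of peaks it turned to -2.29.

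The *Tph2* promoter is shown because it is the 1 promoter of these genes open in both cell types. The stretch chr10:114622049-114622328 (mm9, minus strand) covers the 250 bases before the TSS and 30 after it, with capitals for 3 words. These are the word of GATA factors (AGATAA), the word known as TATA box (TATAAA) and a part of the element of the repressor REST (TCAGCACC).
Tph2 promoter: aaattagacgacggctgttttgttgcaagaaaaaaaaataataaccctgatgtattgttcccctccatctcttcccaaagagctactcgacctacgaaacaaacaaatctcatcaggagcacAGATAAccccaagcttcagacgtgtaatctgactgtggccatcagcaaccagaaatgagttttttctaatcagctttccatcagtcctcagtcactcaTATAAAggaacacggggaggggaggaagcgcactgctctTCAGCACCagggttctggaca
Counting the TSS as position 1, these words start at -128, -30 and 10, all on the strand of the gene. Between 250 bases before and 50 after the TSS, 10.4% of 22380 promoters of protein-coding genes held AGATAA on either strand, 13.4% TATAAA and 1.57% TCAGCACC. The word GGACAG, another part of the REST element, was added after the sequence had been seen. It starts at 26, after 8 further bases, and 18 promoters (0.0804%) held both parts in this order with at most 20 bases between them. Neither this word nor the limit of 20 bases was planned, so this share is no test of rarity. The E-box CAGCTG starts at 45 and was found in 15.2% of promoters. The words of ETS factors (CCGGAAG, 10.8% of promoters), LIM-homeodomain factors (TAATTA, 4.86%), forkhead factors (TGTTTAC, 3.11%) and NR4A receptors (AAAGGTCA, 1.23%) were not in this window. The 300-base window had 47.3% G and C, below the median of 55% over all promoters.

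The highest percentiles at *Tph2* in DA replicates 1 and 2 and 5-HT replicate 2 lay not at the promoter but within intron 8. The region chr10:114534284-114534648, 365 bp wide and 87.6 kb downstream of the TSS, was open in every library with scores of 14.7, 11.5 and 11 in DA and 5.33 and 3.68 in 5-HT. It held percentiles of 98, 93.3 and 95.1 in DA against 68.4 and 49.7 in 5-HT, and both 5-HT libraries lay below each DA library. This order was held by 21.6% of all distal regions and by 42.9% of those open in all 5 libraries. Among distal peaks, those that overlap no promoter of any gene, it ranked 136 of 38400, 1781 of 76326 and 1303 of 78481 in DA replicates 1 to 3, and 5211 of 25046 and 4190 of 11855 in 5-HT replicates 1 and 2. Distal regions were open in all 5 libraries in 5.55% of cases. At equal numbers of peaks its percentiles were 95.4, 72.8 and 79.8 in DA and 46.5 and 49.7 in 5-HT, in the same order of the groups.

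The central 300 bases of the intron 8 region, chr10:114534317-114534616 (mm9, minus strand), are shown as the highest-scored distal region of the locus. None of the 9 words was found in them, so the run has no capitals.
Tph2 intron 8: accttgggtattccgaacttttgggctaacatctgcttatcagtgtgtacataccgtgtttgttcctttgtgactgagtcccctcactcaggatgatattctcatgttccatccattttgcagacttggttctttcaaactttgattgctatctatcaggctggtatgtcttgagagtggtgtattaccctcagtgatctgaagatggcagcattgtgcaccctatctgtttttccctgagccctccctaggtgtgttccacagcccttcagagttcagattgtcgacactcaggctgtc
Stretches at 80% identity or more to other places of the genome covered 46.8% of the whole region, and no other place matched at least 50% of it at that identity. The same share was 49.6% for a region of intron 6, 37.7% for one upstream of the gene, 22.2% for one of intron 7 and 0% for the promoter region. How reads from such repeated stretches bear on the scores was not tested.

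The other regions of *Tph2* were open mostly in DA libraries. Over the 16 regions of the window, DA replicates 1 to 3 had 6, 12 and 14 peaks and the 5-HT libraries 2 and 3, a mean of 10.7 ± 4.16 (SD, n = 3) against 2.5 ± 0.707 (n = 2). The groups did not overlap, as in 31.9% of protein-coding gene windows with DA higher and 0.0805% with 5-HT higher (p = 0.2, exact permutation test; 0.667 adjusted over all genes, whose median difference was 1 peak). With 22879 peaks per library the numbers became 2, 2 and 3 in DA and 2 and 3 in 5-HT, and the mean difference turned to -0.167. Per 10000 peaks the *Tph2* values were 1.14, 1.29 and 1.48 in DA and 0.516 and 1.31 in 5-HT, and the groups overlapped. Of 13 regions open in DA libraries alone (81.2%, against 67.5% of all regions), 3 were open in all 3 of them (18.8% of the window, against 13.4%). Their places were intron 5 (chr10:114608383-114608990), intron 2 (chr10:114617863-114618887) and 6.31 kb upstream of the TSS (chr10:114628236-114628537). Another region seen in 5-HT cells, in intron 9 (chr10:114518793-114519392), had percentiles of 45.3 and 58.6 in DA replicates 2 and 3 and of 7.4 in 5-HT replicate 2. In windows of at least 10 regions around 2779 protein-coding genes, the median share of regions open in any 5-HT library was 33.3%, with quartiles of 22.9% and 45.5%, and at *Tph2* it was 18.8%.

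Distal regions of *Tph2*, 14 in all, were spread over the gene. A pattern of DA libraries alone was seen in 12 of them, against 74.8% of all distal regions, and of all 3 DA libraries alone in 3, against 14.6%. A 5-HT library had a peak in 2 of the 14, against 25.2%. Of the 12, 9 were found in 1 or 2 DA libraries, with widths of 100 to 985 bp and no percentile above 61.5. By position, 11 regions lay in introns, 1 overlapped exon 5 by 10 bp, 2 lay upstream of the gene and none lay in the 20 kb downstream of it. A further region, chr10:114612545-114612982, covered the TSS of the short noncoding transcript Tph2-002 in intron 4 and had a peak in DA replicates 2 and 3 at percentiles 34.8 and 33. The density of 10.9 regions per 100 kb compared with a median of 5.92 over protein-coding genes, with quartiles of 3.05 and 9.31, and 5.7% of these genes had 16 regions or more in their window.

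The upstream region open in the 3 DA libraries is shown for its GATA word. Its percentiles were 45.1, 58.6 and 65.2 in DA and 0 in both 5-HT libraries. In chr10:114628237-114628536 (mm9, minus strand) the capitals mark AGATAA, read here on the opposite strand as TTATCT.
Tph2 upstream: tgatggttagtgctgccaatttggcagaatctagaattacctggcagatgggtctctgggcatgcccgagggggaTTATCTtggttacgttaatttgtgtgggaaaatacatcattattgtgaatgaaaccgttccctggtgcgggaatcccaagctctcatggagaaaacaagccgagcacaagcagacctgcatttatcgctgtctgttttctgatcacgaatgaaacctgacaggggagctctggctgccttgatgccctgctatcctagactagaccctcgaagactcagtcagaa
Over the central 300 bases of all regions, 11.2% held this word. It was also found in the neighbouring 100 bp region chr10:114628909-114629008, open in DA replicate 3 alone. TAATTA (7.86% of regions) and CAGCTG (23%) stood together in the intron 2 region, and TGTTTAC (4.78%) in a region of intron 5 open in DA replicate 2.

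**Figure D1:**
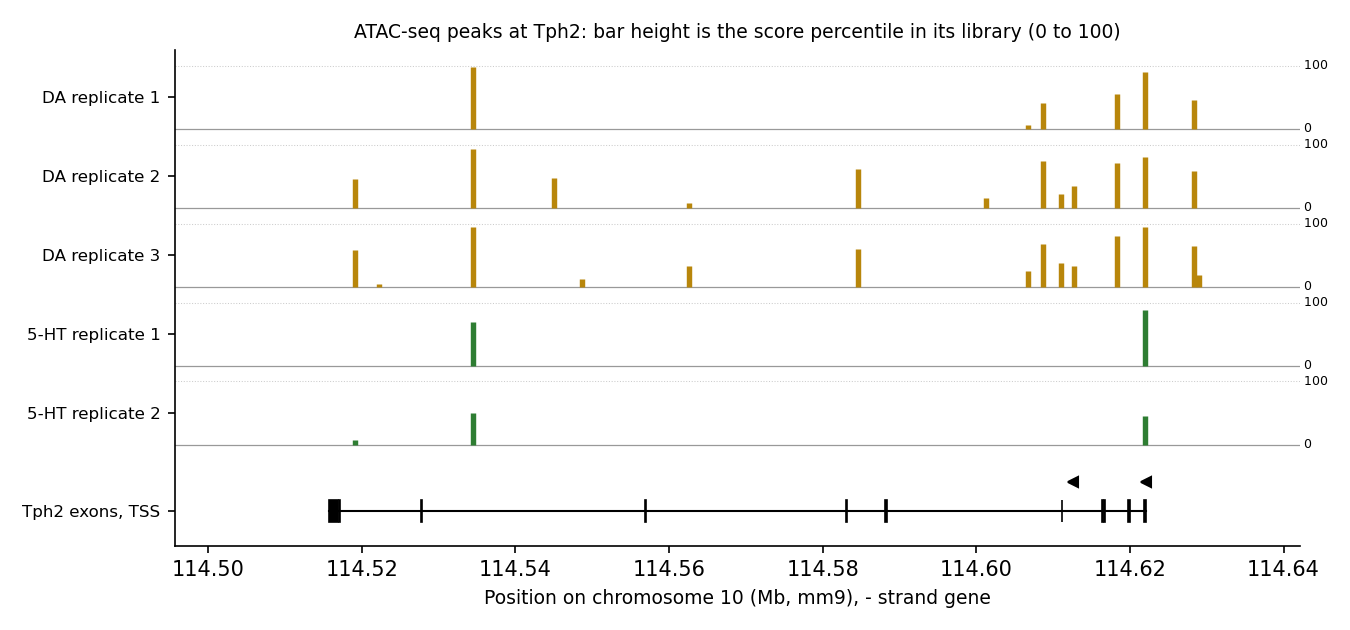
Peaks in the window of *Tph2* on chromosome 10 of mm9, with position in Mb on the horizontal axis and 1 line per library, DA in ochre and 5-HT in green. Bar height is the percentile of the score in that library from 0 to 100, black boxes are exons and arrowheads TSSs, and the promoter at the right and the intron 8 region are the 2 positions with a bar in all 5 libraries.

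*Slc6a4* (ENSMUSG00000020838.5, chr11:76812105-76845842, plus strand, 33.7 kb) had 1 region in its window, and only DA libraries had a peak there. The region chr11:76810465-76811183, 719 bp wide, lies from -1640 to -922 bp of the first TSS and overlaps the edge of the promoter, taken as 1 kb upstream to 100 bp downstream. Its scores were 4.8, 6.56 and 3.76 in DA replicates 1 to 3, at percentiles 43.8, 74.4 and 43.5, and 0 in both 5-HT libraries. All 3 DA libraries thus lay above both 5-HT libraries, with a mean percentile of 53.9 ± 17.8 (SD, n = 3) against 0 ± 0 (n = 2). This gave the smallest p that 3 and 2 libraries allow, 0.1 in the exact permutation test (0.357 after Benjamini-Hochberg adjustment over 22367 protein-coding genes). The promoter percentile reached the smallest p with DA higher in 27.9% of protein-coding genes and with 5-HT higher in 0.107%. For the number of peaks in the window, 1, 1 and 1 against 0 and 0 (p = 0.1, exact permutation test; 0.554 adjusted over all genes), these shares were 18% and 0.0805%. Per 10000 peaks the *Slc6a4* values were 0.189, 0.107 and 0.106 in DA and 0 in both 5-HT libraries, an order held by 7.82% of gene windows. These measures restate the same 1 region, which is listed only through its DA peaks, and are not separate results.

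No region covered any TSS of *Slc6a4*, the nearest lying 922 bp away. A promoter region open in all 3 DA libraries alone was seen in 5.51% of promoter regions, and a gene with this pattern in 1.99% of protein-coding genes. With 22879 peaks per library the region was no longer kept in any DA library, so the difference between the cell types became 0. The *Slc6a4* window held 1.36 regions per 100 kb, and 19.8% of protein-coding gene windows held at most 1 region. *Gm12343*, a noncoding gene with a TSS in the window, had no promoter peak.

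For *Slc6a4*, the open upstream region and the core promoter without a peak are shown side by side, the first as chr11:76810675-76810974 (its central 300 bases) and the second as chr11:76811855-76812134 (250 bases before the TSS and 30 after it), both mm9 and plus strand. Capitals mark the words GGACAG and CAGCTG in the promoter, and the upstream region held none of the 9 words.
Slc6a4 upstream: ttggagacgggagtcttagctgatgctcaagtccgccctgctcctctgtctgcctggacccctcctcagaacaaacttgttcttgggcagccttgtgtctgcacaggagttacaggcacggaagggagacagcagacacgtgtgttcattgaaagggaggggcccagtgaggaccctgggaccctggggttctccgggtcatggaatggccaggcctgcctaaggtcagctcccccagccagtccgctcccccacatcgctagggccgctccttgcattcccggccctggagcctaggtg
Slc6a4 promoter: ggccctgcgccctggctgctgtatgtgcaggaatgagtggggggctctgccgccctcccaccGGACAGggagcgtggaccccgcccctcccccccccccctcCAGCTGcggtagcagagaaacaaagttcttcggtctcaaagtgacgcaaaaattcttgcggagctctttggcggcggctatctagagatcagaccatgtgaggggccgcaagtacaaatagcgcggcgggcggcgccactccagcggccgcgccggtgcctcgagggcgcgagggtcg
The words start at -188 and -148 and were found in 22.4% and 15.2% of promoters. The promoter is rich in G and C, at 68% over the 300-base window against a median of 55%, and its ratio of observed to expected CpG was 0.807 against a median of 0.534. The upstream region itself had 59.9% G and C, above the median of 49% for all regions.

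*Tph1* (ENSMUSG00000040046.7, chr7:53902500-53927907, minus strand, 25.4 kb) had no promoter peak in any library, as did 34.9% of protein-coding genes. None of its 8 TSSs was covered, and the nearest region lay 4.39 kb from the most upstream of them. The window contained 2 regions. The first, chr7:53894223-53895694, is the promoter of the neighbouring gene *Sergef* and was open in all 5 libraries at percentiles 64.9, 86.7, 85.5, 47.7 and 75.3. The second, chr7:53932294-53932503, lies 4.49 kb upstream of *Tph1* and had a weak peak in DA replicate 2 (score 3.44, percentile 21.7) and in 5-HT replicate 1 (score 3.6, percentile 17.9). The number of peaks in the window was 1, 2 and 1 in DA and 2 and 1 in 5-HT, and the groups overlapped (1.33 ± 0.577, SD, n = 3, against 1.5 ± 0.707, n = 2; p = 1, exact permutation test). Per 10000 peaks of the library the values were 0.189, 0.215 and 0.106 in DA and 0.516 and 0.437 in 5-HT, with 5-HT higher (p = 0.1, exact permutation test, unadjusted), an order held on this scale by 35.2% of protein-coding gene windows. The region shared by all 5 libraries gives 1 peak to each, so that this scale puts the smaller 5-HT libraries higher. The other neighbour, *Saal1*, had a TSS in the window without a peak.

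The upstream region of *Tph1* is shown in full as the only distal region at these genes with a peak in 1 library of each cell type, chr7:53932294-53932503 (mm9, minus strand), with capitals for GGACAG read on the opposite strand.
Tph1 upstream: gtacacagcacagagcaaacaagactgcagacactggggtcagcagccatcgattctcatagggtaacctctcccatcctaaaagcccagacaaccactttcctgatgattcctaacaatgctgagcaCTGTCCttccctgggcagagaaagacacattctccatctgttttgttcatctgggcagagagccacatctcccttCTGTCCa
The word was present 2 times, and 19.1% of all regions held it in their central 300 bases. The promoter stretches of 300 bases that RefSeq gives for these genes on GRCm38.p6, 250 before and 50 after the TSS, 2 for *Tph1* and 1 each for *Tph2* and *Slc6a4*, were found letter for letter in mm9, and of these 300-base stretches only that of *Tph2* overlapped an open region. That of *Slc6a4* begins downstream of the open region, which lies at the edge of the wider promoter of 1 kb.

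**Figure D2:**
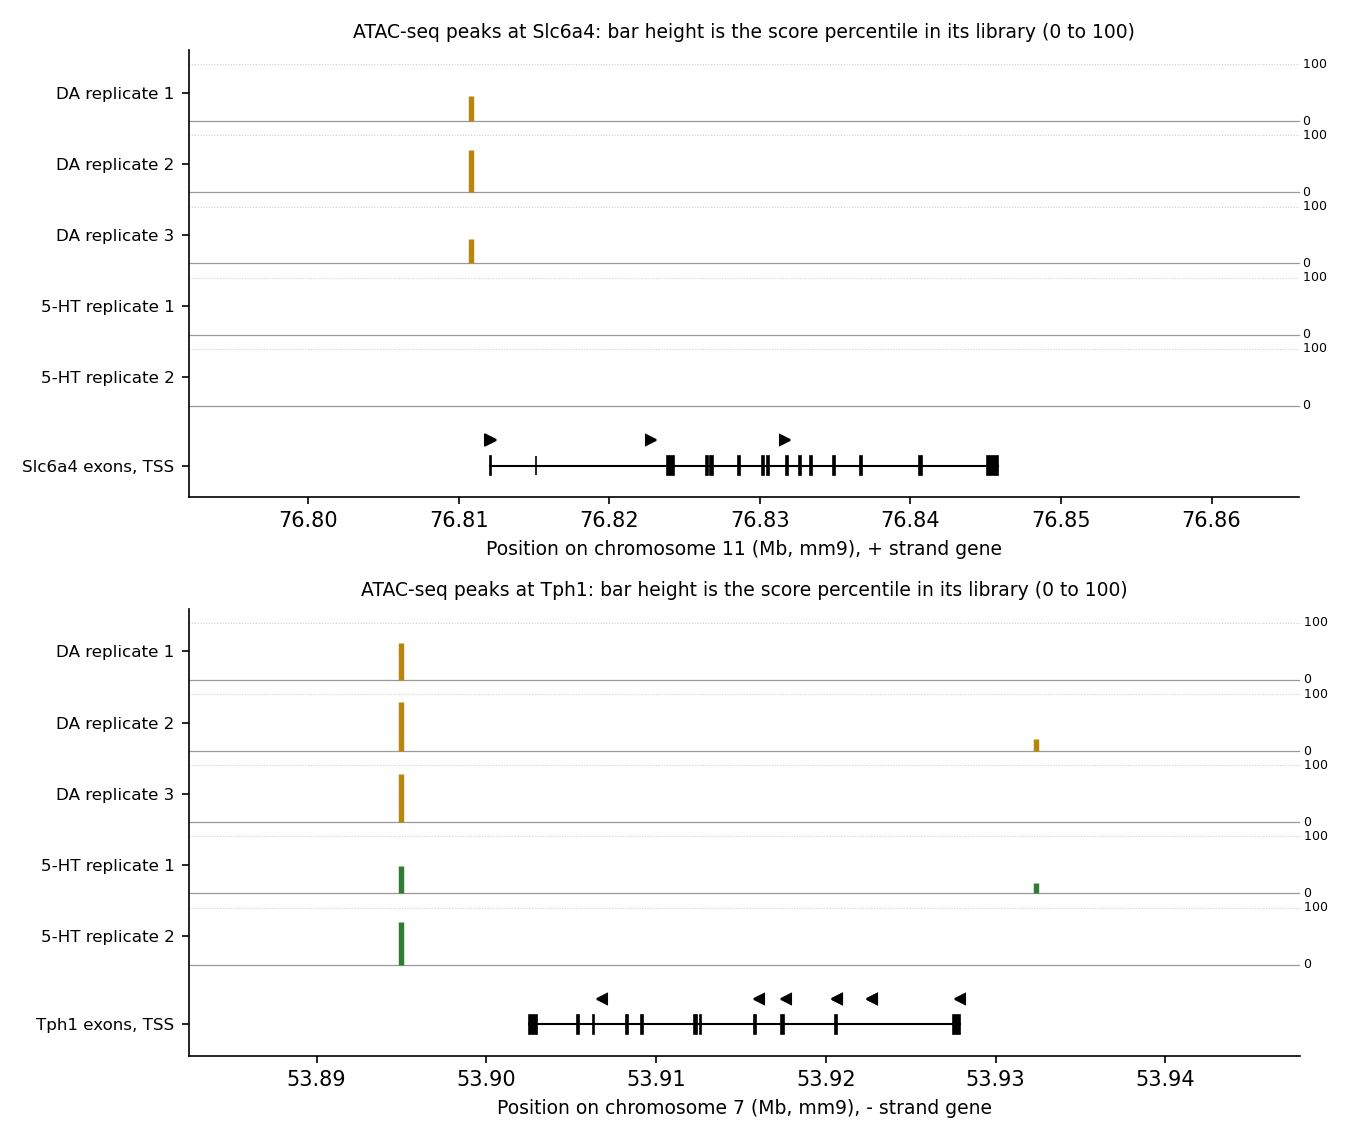
Peaks in the windows of *Slc6a4* (chromosome 11, top) and *Tph1* (chromosome 7, bottom) of mm9, with position in Mb on the horizontal axis, 1 line per library and bar height as the percentile of the score in that library from 0 to 100. Black boxes are exons and arrowheads TSSs, and no region covers a TSS of either gene.

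Genes that act before and after these steps were mostly open in both cell types. Of the 9 annotated genes of synthesis, storage and breakdown, 9 had a promoter peak in each DA library and 7 and 8 in 5-HT replicates 1 and 2, beside 59.8%, 63.7%, 62%, 58.2% and 49.6% of all protein-coding genes in the 5 libraries. All 5 libraries had a peak for 7 of the 9 (48.5% of genes). Median percentiles were 69.9, 82.4 and 85.9 in DA and 66.9 and 37.7 in 5-HT, against 47.1, 68.9, 66.8, 39.4 and 0 over all genes. *Qdpr*, which regenerates the tetrahydrobiopterin cofactor of the hydroxylases, was the highest in each library (99.2, 99.7, 99.5, 99.1 and 97.2), and *Pts*, of cofactor synthesis, followed with 93.7, 97.2 and 94.7 in DA and 90 and 75.2 in 5-HT. *Gch1*, which starts that synthesis, had 71.4, 82.4 and 85.9 against 66.9 and 59.6, and *Spr*, which ends it, 58.6, 88.4 and 78.7 against 53.5 and 36.

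Other genes of the list act on the amine itself. *Ddc*, the decarboxylase shared by dopamine and serotonin synthesis, had promoter percentiles of 66.2, 73.7 and 87.3 in DA and 73.4 and 16.9 in 5-HT. *Slc18a2*, which loads monoamines into vesicles, had 41.9, 76.4 and 63.6 against 0 and 17.4. *Maoa*, which degrades serotonin, was open in all libraries (86.5, 90.1 and 93.3 against 72.4 and 48.2), and *Maob* in DA alone (14.2, 15.5 and 46.1 against 0 and 0). *Aanat*, which turns serotonin towards melatonin, had 69.9, 80 and 76.8 against 56.2 and 37.7. *Asmt* was not found in the annotation under that symbol and was not analysed here.

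The factors that specify serotonin neurons included the 1 gene of these lists with a promoter peak in 5-HT and no DA library. This was *Fev*, in 5-HT replicate 1, a pattern held by 0.192% of protein-coding genes. Over the 7 factors, 5, 6 and 5 had a promoter peak in DA replicates 1 to 3, and 7 and 3 in 5-HT replicates 1 and 2 (59.8%, 63.7%, 62%, 58.2% and 49.6% of all protein-coding genes). Median percentiles were 52.6, 51.5 and 61.7 in DA and 59.9 and 0 in 5-HT, beside 47.1, 68.9, 66.8, 39.4 and 0 over all genes. *Gata2* had 0, 4.2 and 0 in DA and 41.7 and 0 in 5-HT, whereas *Gata3* was open in all libraries (73.6, 51.5 and 61.7 against 65.8 and 95.5). *Nkx2-2*, of ventral hindbrain progenitors, had 6.35, 34.6 and 40.6 against 66.4 and 0. *Lmx1b* (63, 81 and 76.1 against 49 and 0), which acts in both lineages, and *Foxa2* (81.7, 78.3 and 84 against 59.9 and 23.1), of the floor plate, were higher in each DA library than in either 5-HT library, an order seen in 34.7% of protein-coding genes, with both 5-HT libraries above each DA library in 0.344%. *Insm1* (52.6, 83.7 and 81.9 against 68.7 and 53.1) overlapped between the groups.

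The catecholamine counterparts of the serotonin genes gave a reference for the same protein families. *Th*, like the tryptophan hydroxylases an aromatic amino acid hydroxylase, had a promoter peak in each DA library and in neither 5-HT library, whereas *Tph2* had one in all 5. In the whole window of *Th*, DA replicates 1 to 3 had a peak in 5, 9 and 6 regions and 5-HT replicates 1 and 2 in 1 and 0. The medians over all protein-coding gene windows were 2, 3 and 3 in DA and 2 and 1 in 5-HT. The dopamine transporter gene *Slc6a3*, a close relative of *Slc6a4*, had percentiles of 73, 56.1 and 58.8 in DA and 11.2 and 0 in 5-HT. Its percentiles in DA lay within the range of those of the *Slc6a4* upstream region (43.5 to 74.4). The noradrenaline transporter gene *Slc6a2* had a promoter peak in DA replicate 2 alone (31.6), and *Dbh*, which makes noradrenaline, in no library. Of the 4 genes, 2, 3 and 2 had a promoter peak in the DA libraries and 1 and 0 in the 5-HT libraries, beside 59.8%, 63.7% and 62% of all protein-coding genes in DA and 58.2% and 49.6% in 5-HT.

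**Figure D3:**
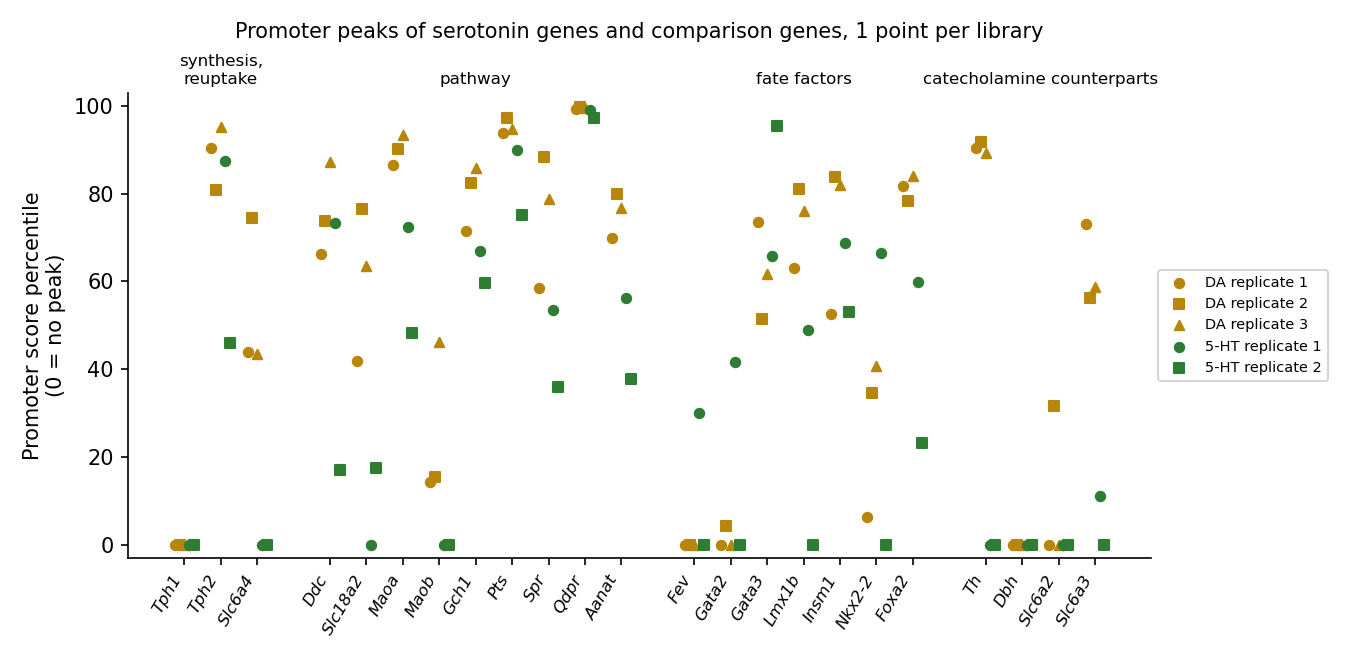
Promoter score percentile (vertical axis, 0 for no peak, no unit) of each gene on the horizontal axis, with 1 point per library, DA in ochre and 5-HT in green, and the shape giving the replicate. *Tph2* has points above 0 in all 5 libraries, *Slc6a4* in the 3 DA libraries, *Tph1* in none, and *Fev* in 5-HT replicate 1.

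Genes with the most similar promoter pattern were sought by the Euclidean distance between percentiles over the 5 libraries, among 14559 protein-coding genes with a promoter peak in any library. For *Tph2* these were *Grpr*, *Ube2j2*, *Aggf1*, *Fam184a* and *Setdb1*, at distances of 8.84 to 10.2 percentile points. *Grpr*, which encodes the receptor of gastrin-releasing peptide, had 93.4, 77.1 and 95.5 in DA and 86.5 and 53.4 in 5-HT. For *Slc6a4* they were *Alox12b*, *Srrm3*, *2810417H13Rik*, *Ikzf4* and *Sgpp2*, at 5.07 to 11.9 points, and of these only *Srrm3* had a 5-HT peak (percentile 4.68 in replicate 1).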

How the data were processed

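ATAC-seq peaks were analysed for 3 DA and 2 5-HT libraries. The authors used Trimmomatic for trimming, Bowtie2 for alignment (mm9), Picard against duplicates, MACS2 for calling peaks in each library and BEDOPS to join peaks with gaps under 100 bp. Tool versions and the calling threshold are not given in the sources used here. For each library the deposited files give a score for the same 131942 regions, and 0 marks a region without a peak. This score has no named scale and was compared as percentiles within a library. The read depth is unknown. A misspelled chromosome name in 1 line was corrected.

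Genes, exons and TSSs were taken from GENCODE vM1 and sequences from NCBIM37, both mm9, and RefSeq promoters from GRCm38.p6. A promoter held the 1 kb before a TSS and the 100 bp after it, and an overlap of at least 1 bp counted. Mean numbers of peaks and mean promoter percentiles were compared by an exact two-sided permutation test over libraries, and p-values were adjusted over all protein-coding genes, not over the 3 genes as planned. Each p is the share of the 10 divisions of the libraries with a difference in means at least as large. The unit was the library, each from a separate sort. Copies of regions were searched with BLAST+ 2.17.0. Named genes were the 3 genes, their neighbours with a promoter in a window, the pathway, fate factor, catecholamine and marker lists, and the 5 genes nearest in promoter pattern. Some planned list genes are not reported here. The members and lists were chosen with earlier results of these data known. Alternatives changed the window, the promoter, the number of peaks, the merging, the placing of regions and the libraries. Computations used Python 3.11.15, NumPy 2.4.6, pandas 2.3.3 and matplotlib 3.10.9, and were tested on simulated data.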

Additional observations from a re-analysis of the deposited data

How the results depend on the processing

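The larger number of peaks in DA libraries at *Tph2* (8.17 more than in 5-HT) and over the 3 genes (9 more) kept its direction in 13 of 14 alternatives each. With equal numbers of peaks both differences turned to -0.167. For *Tph2* promoter percentiles, 9 of 10 alternatives kept the direction and equal numbers gave -2.29. For *Slc6a4*, the difference of 1 peak was 0 without an extension of the gene body and 0 with equal numbers of peaks, and that of 53.9 percentile points was 0 for a region holding the TSS and 0 with equal numbers. For *Slc6a4*, 12 of 14 and 8 of 10 kept the direction, and 7 of 14 did for *Tph1*. At *Tph1*, where the difference was -0.167, it was 0 without extension and with equal numbers and 0.333 with 50 kb. By construction, equal numbers keep fewer peaks of each larger library, and the other causes were not tested.

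Leaving out each library in turn gave -0.667 to 0.333 peaks at *Tph1*, 6.5 to 10.5 at *Tph2*, 1 to 1 at *Slc6a4* and 7.5 to 11.5 over the 3 genes, and 1.34 to 42.9 and 43.6 to 59.1 percentile points at *Tph2* and *Slc6a4*. Samples share the numbers 1 and 2 across cell types, with no pairing given. Deviations from the group means correlated at -0.0125 and -0.0146 over all regions between samples with the same number. With 2 5-HT libraries, each value is by construction the opposite of that with the other 5-HT library. Whether samples were paired was not tested. A replicate block on these numbers gave differences of 0, 6.5, 1 and 7.5 peaks for *Tph1*, *Tph2*, *Slc6a4* and their sum, and of 18.9 and 59.1 points for *Tph2* and *Slc6a4*. Adding a common minimum score of 3.45, chosen after seeing the data, gave -0.5, 6.67, 1 and 7.17 peaks. No alternative could give a p below 0.1.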
